A study of Mus musculus with 16 samples.

Results

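The hearts compared here came from mice given doxorubicin without nicotinamide mononucleotide (NMN) and from mice given saline alone. The 4 libraries labelled DOX_Vehicle are called doxorubicin vehicle and the 4 labelled Sham_Vehicle are called sham vehicle, and both were chosen by these labels, which gives 8 of the 16 libraries of the series. All mice were wild-type C57BL/6 males of 8 weeks. Doxorubicin vehicle mice received saline and, 30 min later, a single intraperitoneal dose of doxorubicin of 15 mg/kg, while sham vehicle mice received saline both times. Hearts were taken 5 days after the dose, total RNA was made into libraries that do not keep the strand, and reads were counted per gene. The other 8 libraries, from mice given NMN at 500 mg/kg before saline or doxorubicin, share the fit and enter 1 comparison near the end. The labels do not say whether a library was made from 1 heart or which chambers it held, and they number the replicates without tying a number in one group to the same number in another. Where hearts are counted or compared below, libraries are meant.

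Doxorubicin is an anthracycline used against cancer that slips between DNA bases, traps topoisomerase II on the cut DNA, and is reduced by cellular enzymes to a radical that hands its electron to oxygen. The heart is the organ whose injury limits its dose. Cardiac muscle depends on a dense array of contractile filaments, on calcium cycling through the sarcoplasmic reticulum and on mitochondria that burn mainly fatty acids, and fibroblasts and vessels supply its matrix and blood.

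Totals ran from 15.0 M to 16.4 M counts in these 8 libraries, so that 3 counts stood for 0.183 to 0.201 CPM, which here is a count scaled by the total of its library and nothing else. The hearts carried high levels of cardiomyocyte genes, and 0 of 9 natural killer cell markers, 2 of 12 T cell markers and 1 of 7 lung markers had enough counts to be tested. The lung marker tested, Ager, rose by 2.65 on the log2 scale at low levels (0.561, 0.134, 0.440 and 0.248 CPM in sham vehicle and 1.43, 0.912, 3.20 and 3.17 CPM in doxorubicin vehicle), and 5 of the 7 were in the tables. Mitochondrially encoded genes took 26.4% ± 1.06 of counts in sham vehicle and 22.9% ± 0.931 in doxorubicin vehicle (SD, n = 4 each). On the first principal component of the 8 libraries, which held 67.9% of the variance, the sham libraries lay between -58.9 and -49.2, doxorubicin vehicle replicates 1 and 2 at 32.3 and 17.6, and replicates 3 and 4 at 80.8 and 82.6. The doxorubicin hearts therefore formed 2 pairs that stood apart from each other. The same pairs fell on opposite sides of a division that crosses all groups of the series and is drawn on the level of Scand1, Cox11 and Mrps34. Its first part holds replicates 1 and 2 of both vehicle groups and its second part replicates 3 and 4. The labels give no batch, so what the division stands for is not known. Folds within each part are given for some genes and lists, many others differ between the parts too, and means and SD of doxorubicin vehicle combine both pairs.

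A large share of the genes tested differed between the groups. Of 14716 genes tested, 7170 were called at an adjusted p under 0.05 by the quasi-likelihood test of edgeR, adjusted after Benjamini and Hochberg, which is 48.7% of them. They divided into 3647 higher (24.8%) and 3523 lower (23.9%), and the median log2 fold of all genes tested was 0.01. These shares are the background against which each group of genes below is to be read. The groups did not overlap in CPM for 5742 of the 14716 genes tested, and 5405 of these were called. Groups that do not overlap are therefore common here and do not set a single gene apart. Over 2-fold, 1198 genes were higher and 1445 lower, and over 16-fold 53 were higher and 41 lower. By amount, 18.4% of all counts lay in other genes in doxorubicin vehicle than in sham vehicle (the summed absolute difference of mean CPM, divided by 2). Of 62 gene lists, 37 had more members called higher than lower and 22 more called lower.

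**Figure D1:**
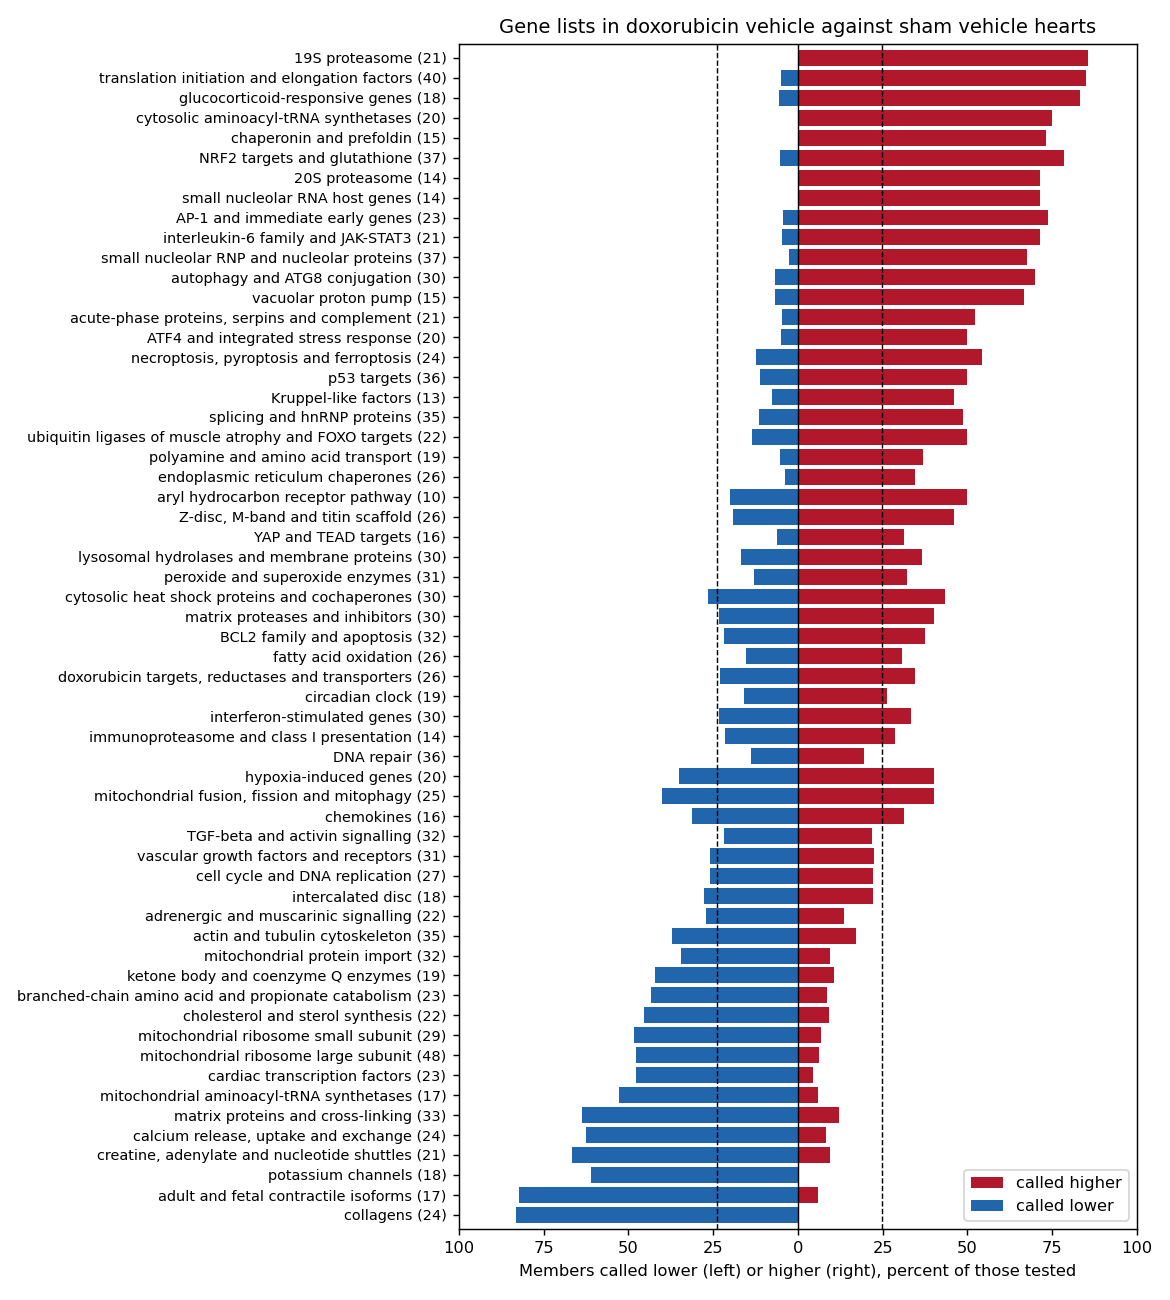
Share of the tested members of 59 gene lists called higher (right, red) and lower (left, blue) in doxorubicin vehicle against sham vehicle, in percent, with the number tested after each name. Dashed lines mark the shares over all genes tested, 24.8% higher and 23.9% lower. Protein turnover, translation and antioxidant lists lie to the right, and collagens, potassium channels and contractile isoforms to the left.

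In relative terms stress and defence genes were among the steepest rises and red cell genes among the steepest falls. Hmox1, which breaks down heme, went from 8.10, 8.36, 5.28 and 6.69 CPM in sham vehicle to 116, 76.6, 501 and 458 CPM in doxorubicin vehicle (log2 fold 5.39, SE 0.61, edgeR adjusted p = 7.9e-06). The autophagy receptor Sqstm1 went from 368, 396, 247 and 281 CPM to 1813, 1350.4, 2788 and 2801 CPM (log2 fold 2.78, SE 0.29). In both genes the groups did not overlap and replicates 3 and 4 of doxorubicin vehicle were the highest. The long noncoding RNA 1200007C13Rik showed the same order, with 0.312, 0.267, 0 and 0.248 CPM in sham vehicle, at or near the floor of 3 counts, and 8.70, 9.25, 111 and 127 CPM in doxorubicin vehicle. Doc2b, a calcium sensor of vesicle release, rose by 5.06, and Serpina3f, from the serpin family of close copies, by 8.16. At their low sham levels 1200007C13Rik, Doc2b and Serpina3f passed the filter through other groups, so the filter itself favoured a rise. At the other end, the adult globin gene Hbb-bs stood at 184, 277, 272 and 211 CPM in sham vehicle and 0, 0.391, 1.0 and 0.122 CPM in doxorubicin vehicle, and Hba-a1 at 114, 180.5, 211 and 171 CPM and 0.260, 0.586, 1.13 and 0.183 CPM. Alas2, which starts heme synthesis in red cell precursors, fell by 6.10. At such doxorubicin vehicle levels Hbb-bs and Hba-a1 passed the filter through other groups, which favoured a fall. The globin genes have near-identical copies among which reads could be split, and how much blood each heart held is not given in the sources used here. Outside the red cell, Itgb6, the beta subunit of an integrin that activates latent TGF-beta, went from 16.6, 12.8, 21.8 and 21.8 CPM to 0.325, 1.69, 0.376 and 0.183 CPM, and Lrrc15, a leucine-rich repeat membrane protein, from 34.2, 34.3, 31.4 and 37.0 CPM to 2.73, 1.89, 0.313 and 0.793 CPM (log2 fold -4.61, SE 0.37, edgeR adjusted p = 4.2e-07). Adcy1, an adenylyl cyclase, and Mdga1, a membrane-anchored cell adhesion protein, fell by 4.39 and 4.45.

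By absolute amount, the largest exchange was within the contractile apparatus. Myh7, the slow myosin heavy chain of the fetal mouse ventricle, stood at 486, 426, 215 and 173 CPM in sham vehicle replicates 1 to 4 and at 8345, 8179, 14034 and 12527 CPM in doxorubicin vehicle. Myh6, the fast adult form, stood at 30145, 31890.0, 29663 and 24720.0 CPM and at 2780.5, 2596, 4749 and 4121 CPM in the same order. Both genes separated the groups completely. Since the genes resemble each other, how reads were divided between them is uncertain. Actc1, cardiac alpha-actin, had the largest fall in CPM after Myh6 and went from 9988, 8937, 11528 and 11670.0 CPM to 829, 1329, 635 and 633 CPM. In relative terms Actc1 fell more than Myh6 (log2 folds -3.65, SE 0.35, and -3.02, SE 0.26, a difference that was not tested). After Myh7, the largest rises in CPM were those of Lpl, the lipase that frees fatty acids at the capillary wall (5623 ± 654 to 11882 ± 1877 CPM, SD, n = 4 each), Ankrd1, a titin-bound stress protein (683 ± 271 to 6492 ± 2561), the ferritin heavy chain Fth1 (1287 ± 20.4 to 4693 ± 1116) and the long noncoding RNA Neat1 (617 ± 95.3 to 3343 ± 578). After Actc1, the next largest falls in CPM were in mitochondrially encoded genes with high levels and small folds. They were mt-Co1 (log2 fold -0.11, not called), mt-Cytb (-0.30), mt-Nd1 (-0.43) and mt-Nd2 (-0.53). Among the further large falls in CPM, Atp2a2, the calcium pump of the sarcoplasmic reticulum, went from 14041, 14221, 13233 and 12513 CPM to 6283, 9591, 7224 and 6890.0 CPM and Tpm1, alpha-tropomyosin, from 7449, 7539, 8526 and 8162 CPM to 4048, 3503, 4966 and 5189 CPM. Myom2, an M-band protein, and Des, the intermediate filament desmin, rose by log2 folds of 1.63 and 1.19.

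The locus of the myosin heavy chains showed further changes in counts assigned to genes annotated on either strand. Mhrt, a noncoding RNA transcribed antisense to Myh7, stood at 67.1, 68.8, 58.5 and 35.6 CPM in sham vehicle and 4.29, 4.69, 1.44 and 1.34 CPM in doxorubicin vehicle (log2 fold -4.32, SE 0.44, edgeR adjusted p = 3.5e-06). Reads assigned to Mir208b, a microRNA gene within Myh7, went from 20.1, 26.5, 23.6 and 15.3 CPM to 1.04, 0.586, 0.313 and 0.122 CPM, and those of the unnamed gene Gm49130, which overlaps the end of Myh6 on the other strand, from 13, 11.8, 16.7 and 13.6 CPM to 0.260, 1.63, 0 and 0.183 CPM. All 3 fell while Myh7 rose. The files place Mhrt on chromosome 14 from 54968678 to 54974349 (plus strand), Mir208b from 54975700 to 54975776 (minus), Gm49130 from 54940355 to 54942852 (plus), Myh6 from 54941921 to 54966927 (minus) and Myh7 from 54970684 to 54994626 (minus), on GRCm38. Since the libraries do not keep the strand, reads of these overlapping genes cannot be told apart, and reads at Mir208b do not measure the mature microRNA.

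Contractile isoforms mostly fell and scaffold proteins of the Z-disc went both ways. Of 17 adult and fetal contractile isoform genes tested, 1 rose and 14 fell, with a median log2 fold of -0.97. The 1 that rose was Myh7, and those that fell were not adult forms alone, since Acta1, Acta2 and Myl7 were among them. Tnni3, the inhibitory troponin subunit, was among the steadiest, at 3286, 3429.8, 3509 and 3186 CPM in sham vehicle and 1746, 1686, 1570.4 and 1559 CPM in doxorubicin vehicle (log2 fold -1.04, SE 0.10, edgeR adjusted p = 1.9e-06). Its fold was nearly the same within both parts (-1.04 and -1.06). Mybpc3, the cardiac myosin-binding protein C, and Ttn, the elastic giant titin, fell by 0.90 and 0.97 on the log2 scale. Of 26 Z-disc, M-band and titin scaffold genes 12 rose and 5 fell. Lmod3, a leiomodin that nucleates thin filaments, fell from 102, 91.1, 106 and 112 CPM to 14, 20.3, 7.90 and 8.66 CPM (log2 fold -3.05, SE 0.23), and Nebl, nebulette, fell by 0.98. Xirp1, an actin-binding repeat protein, rose by 1.10. Fbxl22, an F-box protein of the Z-disc, went from 39.8, 43.1, 52.8 and 51.3 CPM to 5.46, 5.86, 3.13 and 2.56 CPM, which left no overlap between the groups (log2 fold -3.49, SE 0.34). At the intercalated disc, where muscle cells join, 4 of 18 genes rose and 5 fell, shares near those of all genes tested. There Tmem65 fell (-1.13) and Gja5, a connexin of gap junctions, fell (-1.59), while the plakophilin Pkp2 rose (0.94).

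Electrical and calcium genes mostly fell. Of 18 potassium channel genes 0 rose and 11 fell, with a median log2 fold of -0.88. Kcnd2, a pore subunit of the transient outward current, went from 28.7, 45.1, 36.9 and 25.4 CPM to 7.08, 14.6, 3.64 and 3.35 CPM, and Kcnj3, a subunit of the acetylcholine-activated channel, from 98.2, 132, 94.7 and 78.2 CPM to 35.1, 48.3, 13.9 and 15.2 CPM. In both genes the second pair of doxorubicin hearts lay lower than the first. Abcc9, the sulfonylurea receptor of the ATP-sensitive channel, fell by 1.22 and did so about equally in both parts (-1.40 and -1.06). For calcium release, uptake and exchange, 2 of 24 genes rose and 15 fell. Cacna2d1, an auxiliary subunit of the L-type channel, and Letm1, a mitochondrial inner membrane ion exchanger, fell by 1.16 and 0.94. Adrenergic and muscarinic genes were mixed, with 3 of 22 higher and 6 lower, the share lower near that of all genes tested. Grk5, a kinase that silences beta-adrenergic receptors, rose from 45.7, 36.5, 36.9 and 39.6 CPM to 110.2, 161, 157 and 151 CPM (log2 fold 1.86, SE 0.15, edgeR adjusted p = 5.1e-07), and the adenylyl cyclase Adcy5 fell by 0.95. Among 23 cardiac transcription factors and coactivators 1 rose and 11 fell, among them Esrrg (-1.0), Irx4 (-1.02) and Ppargc1b (-1.24), 3 regulators of mitochondrial or ventricular genes. Atrial markers moved as well. Of 7 tested 0 rose and 4 fell, but sham vehicle replicate 3 was itself low in them. Summed atrial marker levels were 126, 210, 22.7 and 268 CPM in sham vehicle and ran from 24.9 to 38.8 CPM in doxorubicin vehicle. Mybphl, which is not in that list, was low in the same sham library (3.93, 7.49, 0.188 and 9.42 CPM in sham vehicle). By limma-voom, with or without library weights, 0 atrial markers were called in either direction. The part of the atrial share of a sample in the channel results was not tested.

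**Figure D2:**
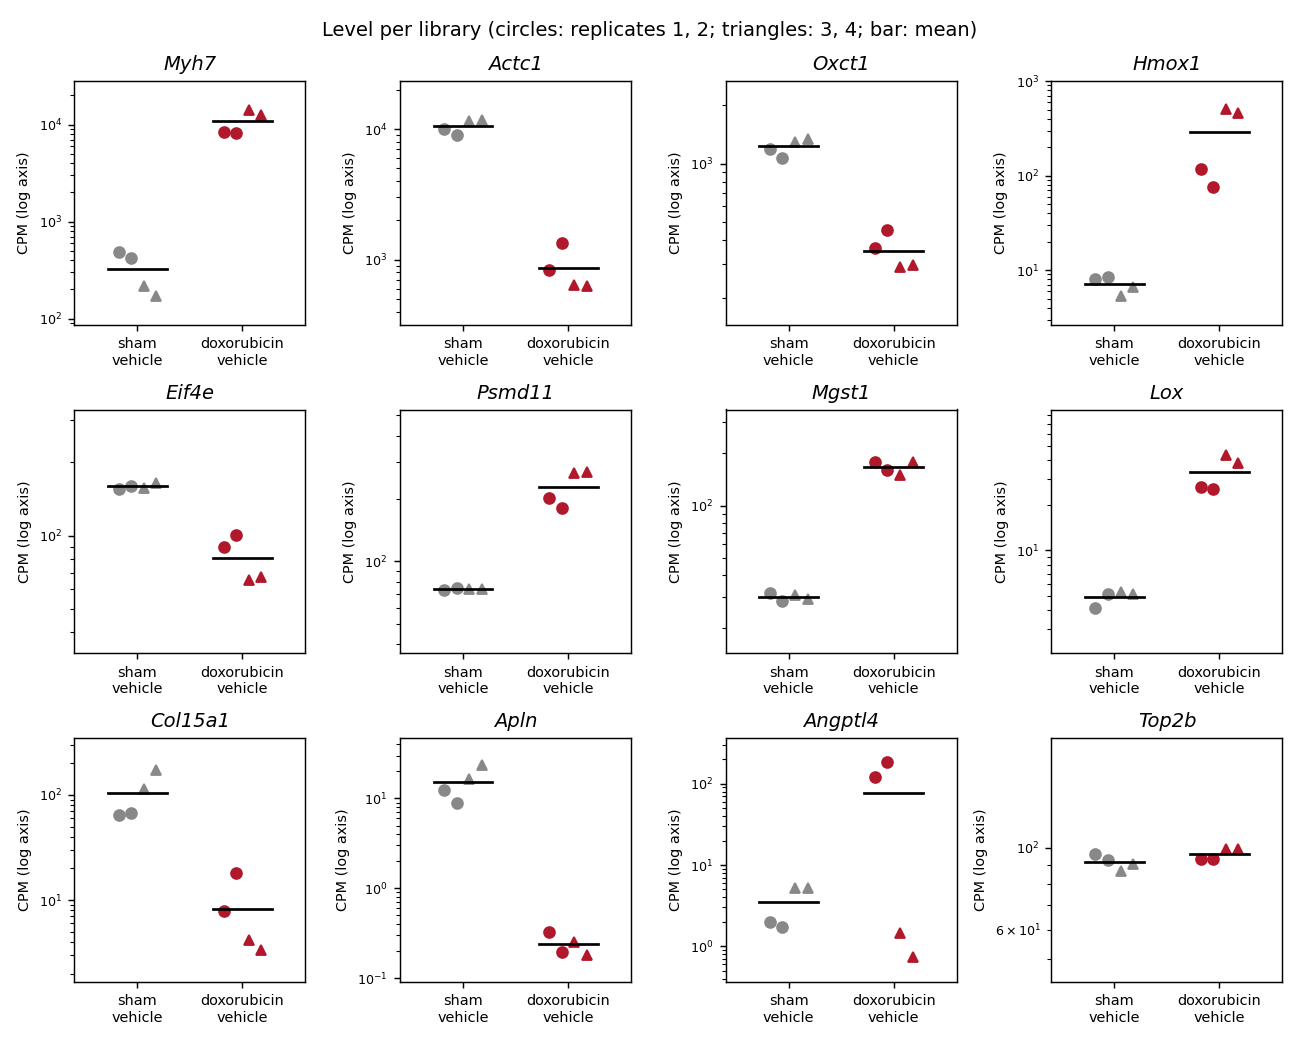
Level of 12 genes in each of the 8 libraries, in CPM on a log axis, with sham vehicle at left and doxorubicin vehicle at right of each panel. Circles are replicates 1 and 2 (first part), triangles replicates 3 and 4 (second part), and the bar is the mean of 4. Groups do not overlap in 10 of the panels, whereas Angptl4 overlaps through the second pair of doxorubicin hearts and Top2b through sham vehicle replicate 1.

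Mitochondria-related genes fell in several groups, but not in all. Of 48 genes of the large subunit of the mitochondrial ribosome 3 rose and 23 fell, and of 29 of the small subunit 2 rose and 14 fell. Mrpl19 stood at 24.5, 23.3, 31.5 and 25.8 CPM in sham vehicle and 10.5, 13.7, 8.34 and 7.38 CPM in doxorubicin vehicle, and Mrpl45 and Mrps11 fell by 0.94 and 1.05. The enzymes that charge transfer RNAs parted by compartment. Of 17 mitochondrial aminoacyl-tRNA synthetases 1 rose and 9 fell (median log2 fold -0.46), while of 20 cytosolic ones 15 rose and 0 fell (median 0.44). Aars2, the mitochondrial alanine enzyme, fell from 33.5, 31.3, 33.4 and 28.3 CPM to 21.5, 25.8, 14.9 and 13.6 CPM, and Vars, the cytosolic valine enzyme, rose from 30.4, 33.2, 35.1 and 32.5 CPM to 67.2, 54.6, 84.2 and 73.2 CPM. Neither pair of groups overlapped. For protein import 3 of 32 genes rose and 11 fell, with the inner membrane carrier translocase subunit Timm22 lower (-1.57) and the outer membrane receptor Tomm20 higher (1.09). Fusion, fission and mitophagy genes gave 10 higher and 10 lower of 25. Bnip3, a mitophagy receptor of the outer membrane, rose from 76.9, 62.6, 44.8 and 44.6 CPM to 362, 302, 448 and 483 CPM (log2 fold 2.82, SE 0.34, edgeR adjusted p = 1.3e-05), and Opa1, which fuses inner membranes, and the transport GTPase Rhot2 fell by 0.69 and 1.01.

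Fuel genes changed by substrate. Oxct1, the enzyme with which the heart activates ketone bodies, fell from 1196, 1069, 1299 and 1338 CPM to 367, 453, 292 and 299 CPM (log2 fold -1.82, SE 0.13, edgeR adjusted p = 3e-07). It separated the groups in every library, with its lowest levels in the second pair of doxorubicin hearts. Of 19 ketone body and coenzyme Q genes in all 2 rose and 8 fell. For branched-chain amino acid and propionate breakdown 2 of 23 rose and 10 fell, with both subunits of methylcrotonyl-CoA carboxylase lower (Mccc1 -0.64, Mccc2 -0.82). Creatine and adenylate shuttles gave 2 higher and 14 lower of 21. Ckb, the brain-type creatine kinase, fell from 34.1, 29.7, 61.3 and 60.5 CPM to 14.1, 11.0, 8.34 and 8.05 CPM, and Ckmt2, the sarcomeric mitochondrial form, fell by 0.95. Fatty acid oxidation went both ways, with 8 of 26 higher and 4 lower (5 higher without doxorubicin vehicle replicate 1, and 2 lower without sham vehicle replicate 3 or 4). Its rises were led by genes that supply fatty acids, the triglyceride lipase Pnpla2 (1.32), Lpl (1.09) and the uptake receptor Cd36 (0.89), and the median of the list was 0.47 in the first part and -0.16 in the second. Sterol synthesis gave 2 higher and 10 lower of 22, including the reductase Dhcr7 (-1.68). Read against the background of 23.9% lower, the share lower was above it in each list of this paragraph except fatty acid oxidation.

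Genes of protein synthesis rose widely. Of 40 initiation and elongation factors 34 rose and 2 fell, with a median log2 fold of 0.69, and their summed level went from 8473 ± 86.9 to 13750.0 ± 1317 CPM. Eef2, which moves the ribosome along the message, rose from 1342, 1487, 1347 and 1257 CPM to 3217, 2710.4, 3227 and 3091 CPM, and the helicase Eif4a1 rose by 1.10. Eif4e, which binds the messenger cap, was 1 of the 2 that fell. It stood at 156, 159.7, 157 and 165 CPM in sham vehicle and 90.0, 101, 65.5 and 67.3 CPM in doxorubicin vehicle (log2 fold -1.0, SE 0.10, edgeR adjusted p = 2e-06). The other, the initiation factor Eif4g2, fell by 0.34 and, like the later members named because they went against their list, was picked after its value was seen. The repressor of Eif4e, Eif4ebp1, went from 53.4, 60.1, 56.7 and 60.9 CPM to 260.0, 154, 288 and 279.5 CPM (log2 fold 2.1, SE 0.24). Of 37 nucleolar protein genes 25 rose and 1 fell, for example Rrp12 (1.20), Ddx21 (1.09) and Wdr43 (1.27), and of 14 host genes of small nucleolar RNAs 10 rose and 0 fell (median 1.18). Snhg12, one of these hosts, was higher by 1.68. Among splicing and hnRNP genes 17 of 35 rose and 4 fell, and Rbfox1, the muscle and nerve splicing regulator, fell by 1.28.

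Genes of protein folding and breakdown rose alongside. Of 21 genes of the regulatory cap of the proteasome 18 rose and 0 fell (median log2 fold 0.77), and of 14 of its core 10 rose and 0 fell (0.44). Psmd11, a cap subunit, stood at 72.6, 74.4, 73.7 and 74.0 CPM in sham vehicle and 200.3, 181, 264 and 267 CPM in doxorubicin vehicle (log2 fold 1.64, SE 0.14, edgeR adjusted p = 8.5e-07). The sham values lay close together and all doxorubicin values above them. The ubiquitin-binding cap subunit Psmd4 rose by 1.80 and the core subunit Psma7 by 1.12. For the chaperonin and prefoldin 11 of 15 rose and 0 fell, for example Cct2 (0.79). Cytosolic heat shock proteins and cochaperones went both ways, with 13 of 30 higher and 8 lower (5 lower without sham vehicle replicate 4 or doxorubicin vehicle replicate 3). Fkbp4, a cochaperone of HSP90 and steroid receptors, fell from 365, 353, 379 and 399 CPM to 135, 155, 81.7 and 81.0 CPM, while Hsp90aa1 (0.66) and the small heat shock protein Hspb7 (0.90) rose. Endoplasmic reticulum chaperones gave 9 higher and 1 lower of 26, with the stress transcription factor Xbp1 higher (1.61). The ATF4 and integrated stress response list gave 10 higher and 1 lower of 20. In it Gdf15, a stress-secreted cytokine, went from 0.561, 0.869, 0.691 and 1.55 CPM to 21.4, 8.27, 10.2 and 7.20 CPM (log2 fold 3.65, SE 0.55), and Atf3 and Atf4 rose by 2.87 and 1.52. Of 30 autophagy and ATG8 conjugation genes 21 rose and 2 fell, among them Atg13 (1.49) and Map1lc3b (1.49), and of 15 subunits of the vacuolar proton pump 10 rose and 1 fell. Against their lists, the protease Atg4d fell by 0.67, the conjugation factor Atg5 by 0.49 and the pump subunit Atp6v1a by 0.36. Ubiquitin ligases and FOXO targets gave 11 higher and 3 lower of 22. Fbxo31, a substrate receptor of an SCF ubiquitin ligase, was higher (1.56), and Asb2, a receptor of another ligase type in muscle, was lower (-1.80).

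For the drug's own targets and the enzymes that act on it, 9 of 26 genes rose and 6 fell, against 24.8% and 23.9% of all genes tested. The share lower was thus near the background and the share higher somewhat above it. Top2b, the topoisomerase of resting cells, stood at 96.2, 92.5, 86.6 and 90.1 CPM in sham vehicle and 93.1, 93.3, 99.3 and 99.1 CPM in doxorubicin vehicle, and was not called (log2 fold 0.07, SE 0.08). Top2a, its counterpart in dividing cells, was low in all libraries, at 1.56, 0.936, 2.83 and 3.97 CPM and 0.0650, 0.0651, 0.376 and 0.366 CPM, the latter below the floor of 3 counts in the first pair (log2 fold -3.35, SE 0.75, edgeR adjusted p = 0.00176). Neither gene was among those the naming rule chose, and both were picked as the drug's targets after their values were seen. Por, the cytochrome P450 reductase that can reduce doxorubicin by a single electron, rose by 1.28, and Xdh, xanthine dehydrogenase, by 1.60. The quinone reductases parted, since Nqo1 rose (2.95) and Nqo2 fell from 31.9, 31.8, 32.2 and 32.7 CPM to 12.9, 15.8, 5.95 and 6.89 CPM (log2 fold -1.67, SE 0.20, edgeR adjusted p = 1.5e-05). DNA repair genes showed no common direction, with 7 of 36 higher and 5 lower, both shares below the background of 24.8% and 23.9%, and under upper-quartile scaling 5 were higher and 7 lower. Ung, the glycosylase that removes uracil from DNA, fell from 28, 23.1, 20.9 and 20.3 CPM to 4.55, 5.27, 3.95 and 2.68 CPM and separated the groups in every library. Cell cycle and replication genes gave 6 higher and 7 lower of 27, shares near those of all genes. Among them the cyclins Ccnd1 (-1.65) and Ccnd2 (-1.30) were lower and the helicase subunit Mcm7 was higher (1.23). Of 36 p53 target genes 18 rose and 4 fell. BCL2 family and apoptosis genes gave 12 higher and 7 lower of 32, with the death receptor Tnfrsf1a (1.64) and the inhibitor Birc3 (1.42) higher and cytochrome c, Cycs, lower (-1.0).

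Antioxidant genes rose widely. Of 37 NRF2 targets and glutathione genes 29 rose and 2 fell, with a median log2 fold of 1.03, and their summed level went from 1505 ± 40.3 to 4474 ± 1071 CPM. Mgst1, a membrane glutathione transferase, stood at 31.6, 28.6, 30.7 and 29.3 CPM in sham vehicle and 178, 159.9, 149 and 178 CPM in doxorubicin vehicle (log2 fold 2.46, SE 0.20, edgeR adjusted p = 4.2e-07). All 4 doxorubicin hearts were close to each other and its fold was nearly the same in both parts (2.42 and 2.49). Gsta1, a cytosolic transferase with near-identical copies, went from 0.748, 0.267, 0.440 and 0.992 CPM to 6.56, 5.73, 41.7 and 47.4 CPM and did follow the pairs, as did the thioredoxin reductase Txnrd1 (63.6, 59.6, 51.5 and 55.5 CPM to 143, 178, 423 and 375 CPM). The members that fell were Gstt1 (-1.69) and Gstk1 (-0.51), transferases of the theta and kappa classes. How reads were divided among the copies of the transferase genes is uncertain. Of 31 peroxide and superoxide enzymes 10 rose and 4 fell. Gpx3, the secreted glutathione peroxidase, rose from 127, 149, 105 and 141 CPM to 909.6, 1220.2, 1833 and 2044 CPM, while Sod2, the superoxide dismutase of the mitochondrial matrix, fell by 0.86 and the cytosolic Sod1 rose by 1.02. Cyp1b1, a P450 induced through the aryl hydrocarbon receptor, rose from 6.61, 6.49, 6.53 and 5.39 CPM to 37.4, 32, 41.4 and 34.1 CPM (log2 fold 2.53, SE 0.22), and 5 of 10 genes of that pathway rose and 2 fell.

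Promoters were read where a list could be set against a motif its regulator binds. Of the 14716 genes tested, 10806 matched a RefSeq promoter (GRCm38.p6, from 250 bases before the start to 50 after it), and 20 motifs were looked for on both strands as a description with no test. Motifs can overlap each other, and a match is letters in a window and not a shown site. The ETS motif CCGGAAG was in 17.4% of all promoters, in 20.8% of those of genes called higher and in 11.5% of those called lower. The E-box CACGTG was in 10.1%, 11.5% and 7.89%, and the antioxidant core TGACNNNGC in 14.8%, 16.6% and 13.4%, in the same order. The MEF2 motif of muscle genes went the other way, with 0.592%, 0.402% and 1.08%. The others searched were the CCAAT, GC and TATA boxes, the CRE TGACGTCA, the C/EBP-ATF element TGATGNAA, the NRF1 motif GCATGCGC, the ERR element TCAAGGTCA, the SREBP element TCACNCCAC, the STAT motif TTCNNNGAA, the TEAD motif GGAATG, the GATA motif AGATAA and, by name alone, the CArG box, NF-kB, p53 and MEF2 motifs. They were in 0.287% (ERR) to 63.3% (GC box) of all promoters. Among the lists, the antioxidant core was in 10 of 32 promoters of NRF2 targets, the heat shock element GAANNTTC in 11 of 24 of heat shock and cochaperone genes against 5.68% of all, the p53 motif (a single copy of the decamer that a full p53 site holds as a pair) in 8 of 27 of p53 targets against 6.84%, and the AP-1 motif TGANTCA in 0 of 18 of AP-1 and immediate early genes against 4.8%. The ETS motif was in 6 of 29 promoters of translation factors (20.7%), near its shares of all promoters and of genes called higher. The MEF2 motif was in 2 of 17 of contractile isoforms. Each promoter that follows belongs to the called member of its list that holds the motif and has the smallest p, so the rises of Mgst1 and Eif3g and the falls of Ccng1, Fkbp4 and Mybpc3 can be set beside their letters. Capitals mark the motif, which for Mgst1 reads on the opposite strand, and the sequences run 5′ to 3′ on the strand of the gene.
Mgst1, antioxidant core, chr6:138140277-138140576 (plus strand): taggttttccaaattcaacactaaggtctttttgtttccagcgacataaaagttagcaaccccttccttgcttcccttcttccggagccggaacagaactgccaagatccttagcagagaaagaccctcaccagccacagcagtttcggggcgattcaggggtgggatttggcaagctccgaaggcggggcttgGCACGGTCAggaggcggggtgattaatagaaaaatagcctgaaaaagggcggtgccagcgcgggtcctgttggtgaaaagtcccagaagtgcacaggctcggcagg
Eif3g, ETS motif, chr9:20898541-20898840 (minus strand): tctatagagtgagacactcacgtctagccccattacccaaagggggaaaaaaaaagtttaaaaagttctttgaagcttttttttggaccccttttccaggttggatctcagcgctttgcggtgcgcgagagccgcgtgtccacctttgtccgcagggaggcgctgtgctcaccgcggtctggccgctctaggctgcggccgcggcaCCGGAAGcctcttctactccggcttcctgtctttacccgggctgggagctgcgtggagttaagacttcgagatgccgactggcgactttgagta
Ccng1, p53 motif, chr11:40755237-40755536 (minus strand): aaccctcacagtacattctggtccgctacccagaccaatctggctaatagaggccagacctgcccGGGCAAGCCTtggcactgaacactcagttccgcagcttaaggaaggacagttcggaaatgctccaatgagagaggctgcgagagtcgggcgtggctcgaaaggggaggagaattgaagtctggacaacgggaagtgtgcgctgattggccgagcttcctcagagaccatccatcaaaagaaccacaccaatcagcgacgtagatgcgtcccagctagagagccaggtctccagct
Fkbp4, heat shock element, chr6:128438607-128438906 (minus strand): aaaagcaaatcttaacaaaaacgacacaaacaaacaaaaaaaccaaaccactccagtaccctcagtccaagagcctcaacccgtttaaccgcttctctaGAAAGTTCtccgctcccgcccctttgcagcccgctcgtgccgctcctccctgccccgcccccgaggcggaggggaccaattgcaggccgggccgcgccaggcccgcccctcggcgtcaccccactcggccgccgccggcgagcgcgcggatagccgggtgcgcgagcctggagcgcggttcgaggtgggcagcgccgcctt
Mybpc3, MEF2 motif, chr2:91117894-91118193 (plus strand): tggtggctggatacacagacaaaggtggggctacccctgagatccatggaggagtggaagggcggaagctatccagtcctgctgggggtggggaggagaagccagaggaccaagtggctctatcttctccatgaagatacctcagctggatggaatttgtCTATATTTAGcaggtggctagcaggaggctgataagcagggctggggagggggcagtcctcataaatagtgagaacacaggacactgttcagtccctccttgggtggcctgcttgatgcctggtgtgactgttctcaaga
Eif3g, a subunit of the initiation factor that recruits the small ribosomal subunit, rose by 1.36, and Ccng1, a cyclin that p53 is known to induce, fell by 1.80 and its promoter holds a single p53 decamer. Fkbp4 and Mybpc3 fell as given above.

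**Figure D3:**
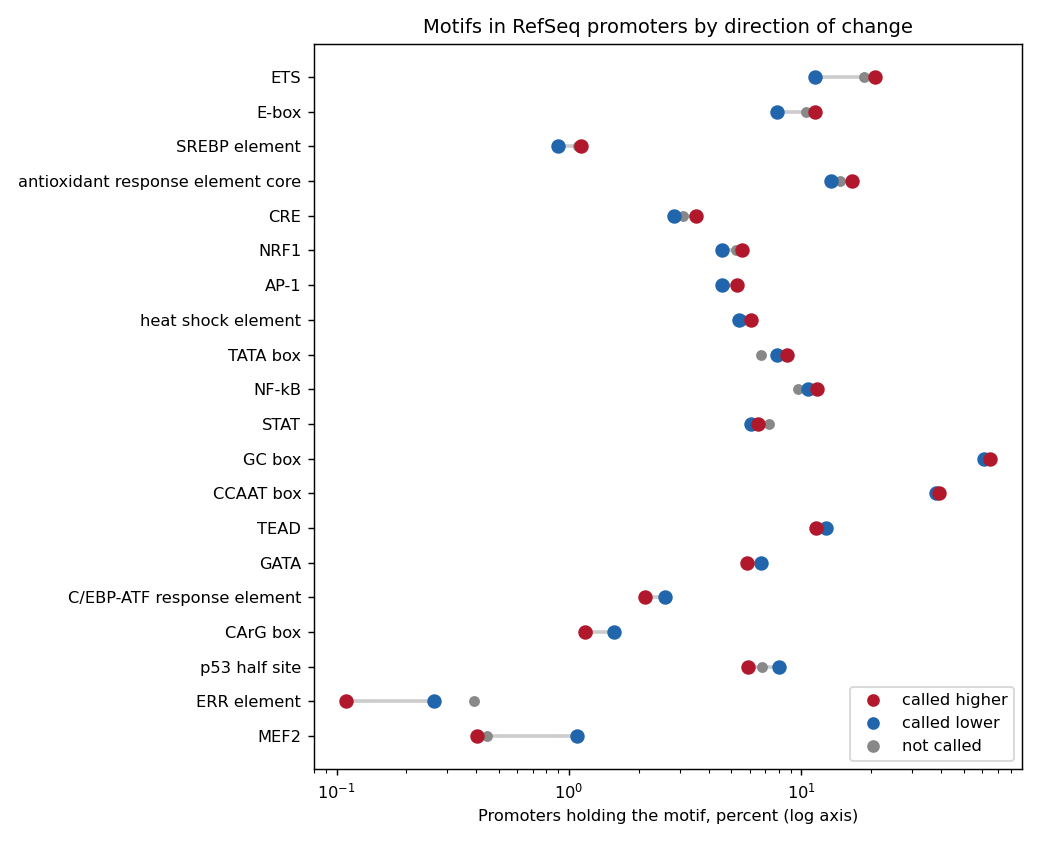
Share of RefSeq promoters that hold each of 20 motifs, in percent on a log axis, for genes called higher (red), called lower (blue) and not called (grey). The ETS motif and the E-box lie further right for higher genes and the MEF2 motif for lower genes.

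Genes of the interleukin-6 path, early response genes and glucocorticoid-responsive genes rose, while the chemokine and interferon lists had members called in both directions. From the first part to the second, the median went from 0.62 to 1.14 in the interleukin-6 list, from 1.18 to 2.33 in the early response list and from 0.80 to 2.02 in the glucocorticoid list. Of 21 genes of the interleukin-6 family and the JAK-STAT3 path 15 rose and 1 fell. The receptor subunit Osmr stood at 24.1, 24.8, 18.3 and 21.8 CPM in sham vehicle and 86.3, 85.4, 235 and 223 CPM in doxorubicin vehicle, the transcription factor Stat3 at 181, 151, 116 and 123 CPM and 267, 329, 808 and 724 CPM, and the feedback inhibitor Socs3 at 4.11, 3.74, 3.64 and 4.46 CPM and 26.5, 23.8, 179 and 146 CPM. Each separated the groups, with replicates 3 and 4 of doxorubicin vehicle well above replicates 1 and 2 (Socs3 log2 fold 4.60, SE 0.57, and 2.61 and 5.36 within the parts). Il4ra, a receptor chain for interleukin-4, rose by 2.73, and the member that fell was the cytokine Ctf1, cardiotrophin (-0.81). AP-1 and immediate early genes gave 17 higher and 1 lower of 23 (median 1.80), among them Maff (2.67) and the messenger decay factor Zfp36 (1.80). Glucocorticoid-responsive genes gave 15 higher and 1 lower of 18. Hsd11b1, which regenerates active glucocorticoid inside cells, rose from 14.2, 16.9, 11.9 and 10.7 CPM to 199, 109, 239 and 293 CPM (log2 fold 3.99, SE 0.33, edgeR adjusted p = 5.1e-07), glutamine synthetase Glul rose by 1.64, and the receptor itself, Nr3c1, was the member that fell (-0.73). Saa3, an acute-phase protein, had 0 counts in every sham vehicle library and 4.35, 1.43, 27.1 and 24.1 CPM in doxorubicin vehicle, a mean at least 74.8-fold above the mean level that 3 counts per library stand for. With 0 counts in sham vehicle Saa3 passed the filter through other groups, so only a rise could be found. Serpina3n, a secreted protease inhibitor of a family of close copies, went from 8.42, 9.36, 5.72 and 5.83 CPM to 233, 236, 613 and 563 CPM. Acute-phase, serpin and complement genes gave 11 higher and 1 lower of 21, chemokines 5 and 5 of 16, and interferon-stimulated genes 10 and 7 of 30. Their medians by part were 0.39 against 0.41 for the acute-phase list, 0.40 against 0.25 for chemokines and 0.11 against 0.14 for the interferon list. Single libraries decided some of these counts. Interferon-stimulated genes called higher went from 10 to 4, 3 and 4 without sham vehicle replicate 1, sham vehicle replicate 2 and doxorubicin vehicle replicate 4, and chemokines called lower from 5 to 3 without sham vehicle replicate 1 or 4 or doxorubicin vehicle replicate 3. The B cell attractant Cxcl13 stood at 0, 0.201, 0 and 0 CPM in sham vehicle and 26.3, 0.912, 4.07 and 3.90 CPM in doxorubicin vehicle, with 1 doxorubicin heart far above the rest, whereas the T cell and dendritic cell attractant Ccl21a fell by 2.08. Cxcl13 too passed the filter through groups other than sham vehicle. The same may hold for other members of the acute-phase and chemokine lists, and their counts are to be read with that limit.

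Markers of blood and tissue cells shifted unevenly. In bulk tissue fewer cells of a type and less RNA per cell cannot be told apart. Of 12 neutrophil markers 10 had enough counts to be tested, and of these 10 rose and 0 fell. The summed level of the 12 ran from 6.20 to 13.6 CPM in sham vehicle and from 138 to 254 CPM in doxorubicin vehicle. Lcn2, which cardiac and other cells also make, held most of that sum. Mmp8, a neutrophil collagenase, stood at 0, 0.334, 0 and 0 CPM and 13.6, 5.86, 3.13 and 3.35 CPM, and Retnlg, a resistin-like protein of granulocytes, at 0.187, 0.468, 0 and 0.124 CPM and 18.8, 6.51, 4.70 and 5.00 CPM, both with their peak in replicate 1 of doxorubicin vehicle. At such sham levels Mmp8 and Retnlg passed the filter through other groups, so the filter itself favoured a rise. The same may hold for other members of the list, and the count is to be read with that limit. Chil3, a chitinase-like protein of monocytes and macrophages, rose by 4.80. Macrophage markers gave 1 higher and 5 lower of 15, with Csf1r, the receptor for their growth factor, lower (-0.65). The count of 5 was 3 without sham vehicle replicate 1, 2 or 4 and 2 without doxorubicin vehicle replicate 4. Erythroid markers gave 0 higher and 8 lower of 8, and their summed level ran from 512 to 812 CPM in sham vehicle and from 31.8 to 80.6 CPM in doxorubicin vehicle. Tfrc, the transferrin receptor that muscle also carries, was the largest remainder, at 34.1 ± 21.2 CPM. Endothelial markers gave 4 higher and 2 lower of 14 (3 and 5 under upper-quartile scaling), with Pecam1 (0.53) and Esam (0.95) higher, both junction proteins. Pericyte and smooth muscle markers gave 0 higher and 6 lower of 11, and Acta2, smooth muscle actin, went from 81.9, 68.5, 202 and 191 CPM to 36.7, 40.8, 22.4 and 20.1 CPM.

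Matrix genes fell, and no collagen gene was called higher. Of 24 collagen genes tested 0 rose and 20 fell, with a median log2 fold of -1.93, against 24.8% and 23.9% of all genes. Col15a1, a basement membrane collagen of muscle and vessels, stood at 64.0, 67.7, 114 and 173 CPM in sham vehicle and 7.80, 17.9, 4.20 and 3.35 CPM in doxorubicin vehicle (log2 fold -3.71, SE 0.58, edgeR adjusted p = 0.0001). The fibril-associated Col14a1 went from 17.5, 12.7, 12.4 and 20.7 CPM to 3.25, 3.91, 1.63 and 1.28 CPM and Col1a1, the main chain of fibrillar collagen, from 71.6, 62.2, 131 and 193 CPM to 18.3, 51.5, 2.88 and 2.32 CPM. Every doxorubicin heart lay below every sham heart for these 3 genes, and the second pair lay lowest. The median over the collagens was -1.26 in the first part and -2.60 in the second. Of 33 other matrix and cross-linking genes 4 rose and 21 fell, including the proteoglycan Lum (-1.94) and the basement membrane proteins Lama4 (-1.16), Lamb1 (-1.05) and Nid1 (-1.01). Of the 4 that rose, Thbs1 (2.12) and Thbs2 (1.32) are thrombospondins and Dcn, decorin (0.69), is a small proteoglycan. The other, Lox, cross-links collagen and elastin and stood at 4.11, 5.08, 5.28 and 5.08 CPM in sham vehicle and 26.4, 25.7, 43.7 and 38.3 CPM in doxorubicin vehicle (log2 fold 2.79, SE 0.28, edgeR adjusted p = 3.4e-06). Fibroblast markers gave 1 higher and 9 lower of 14 (median -1.88), for example Islr (-2.94), Mfap4 (-3.27) and Dpt (-1.82). Pdgfra and Tcf21, a receptor and a transcription factor that define cardiac fibroblasts and were picked out after their values were seen, were not called, at 40.1, 42.1, 41.3 and 56.2 CPM against 42.9, 41.6, 50.4 and 45.1 CPM and at 5.36, 5.08, 7.16 and 9.11 CPM against 5.91, 4.49, 11.6 and 10.4 CPM. How far the number of fibroblasts moved with the matrix genes was not tested.

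**Figure D4:**
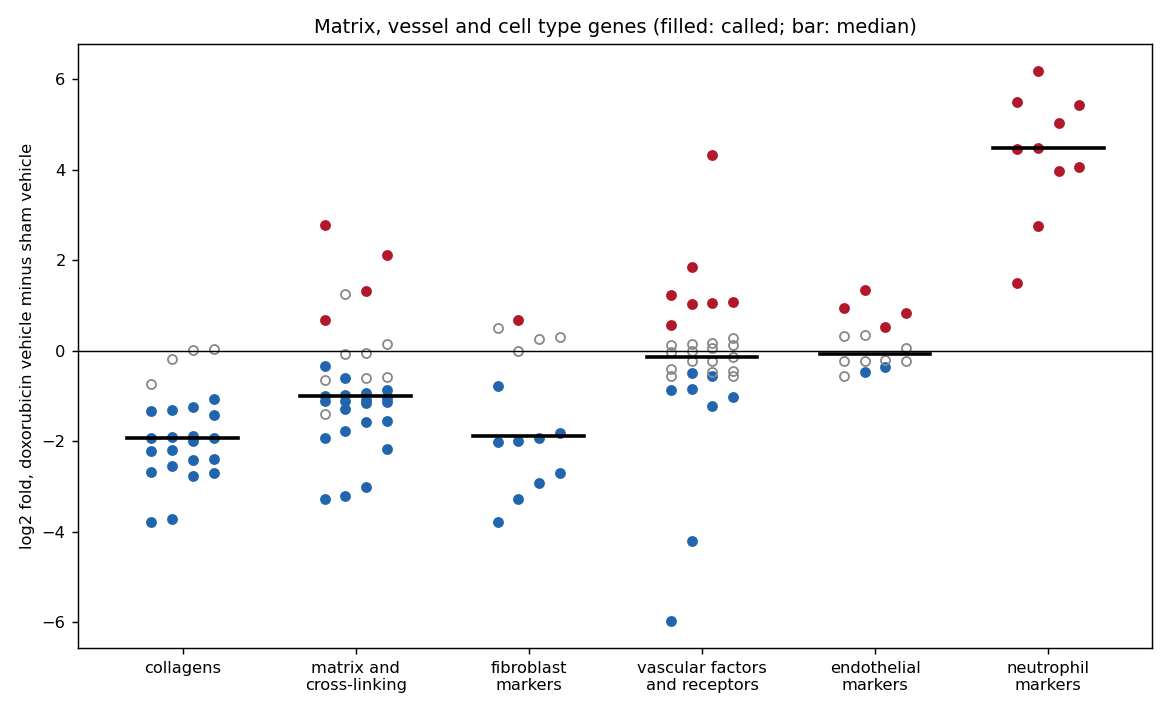
Log2 fold of each tested gene in 6 lists of matrix, vessel and cell type genes, doxorubicin vehicle minus sham vehicle, with called genes filled and others open. Black bars are medians. The collagens lie near or below 0 with a median of -1.93, and the endothelial markers on both sides of 0. The neutrophil markers that could be tested all lie above 0, and some of them passed the filter through groups other than sham vehicle.

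Matrix proteases were called higher more often than the background of 24.8%, while the TGF-beta and vascular growth factor lists matched it closely. Of 30 matrix proteases and inhibitors 12 rose and 7 fell (4 without sham vehicle replicate 4). Adamts1, a secreted aggrecanase, rose from 57.0, 44.9, 36.1 and 30.6 CPM to 122, 127, 259 and 227 CPM, and Mmp15, a membrane-type protease, fell from 94.5, 112, 115 and 115 CPM to 29.9, 35.6, 10.9 and 7.56 CPM. TGF-beta and activin signalling gave 7 higher and 7 lower of 32, shares near those of all genes. Ltbp4, which stores latent TGF-beta in the matrix, fell from 362, 358, 333 and 450.2 CPM to 125, 123, 82.4 and 60.6 CPM, and the receptor Tgfbr2 rose from 60.2, 65.4, 47.3 and 55.8 CPM to 110.0, 116, 188 and 170.1 CPM. For the YAP and TEAD targets 5 of 16 rose and 1 fell. Vascular growth factors and receptors gave 7 higher and 8 lower of 31, again near those shares. Apln, the peptide apelin, stood at 12.4, 8.83, 16.5 and 23.6 CPM in sham vehicle and 0.325, 0.195, 0.251 and 0.183 CPM in doxorubicin vehicle (log2 fold -5.97, SE 0.62, edgeR adjusted p = 3.9e-06). Its receptor Aplnr went from 29.2, 11.9, 58.4 and 89.4 CPM to 1.69, 2.54, 3.57 and 2.44 CPM (log2 fold -4.21, SE 0.62), so ligand and receptor fell in every doxorubicin library, and for apelin the doxorubicin values were at or just above the floor of 3 counts. Nrp1, a coreceptor of VEGF, fell by 0.87, the receptor ligand Angpt1 by 1.02, and Vegfd, a ligand of lymphatic vessels, rose from 1.68, 1.94, 1.26 and 1.86 CPM to 5.78, 6.77, 6.21 and 5.73 CPM. The files place Apln on chromosome X from 48025146 to 48034853, Aplnr on chromosome 2 from 85136225 to 85139923 and Col15a1 on chromosome 4 from 47208161 to 47313167 (GRCm38).

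Among genes called over all libraries, the pairs of doxorubicin hearts differed mostly in size of response and, for some genes, in direction. Of 7145 such genes tested within both parts, 7057 (98.8%) had the same direction in both. Of these 7145, 5877 had the larger absolute fold in the second part. The median absolute log2 fold over the 7145 was 0.56 in the first part and 1.0 in the second. The call used the libraries of both parts and so favours genes that moved the same way in both. The 98.8% is therefore no test of agreement between the parts. Among the genes with the higher fold in the first part were 3 of fuel use. Pdk4, the kinase that shuts pyruvate out of the citric acid cycle, stood at 4527, 5871, 307 and 333 CPM in doxorubicin vehicle against 104, 202, 247 and 224 CPM in sham vehicle, and Angptl4, a fasting-induced inhibitor of lipoprotein lipase, at 119.7, 183, 1.44 and 0.732 CPM against 1.99, 1.74, 5.15 and 5.21 CPM. For Angptl4 the second pair lay below all sham hearts, which gave log2 folds of 6.26 in the first part and -2.21 in the second. Scd4, a fatty acid desaturase, followed them at 97.7, 54.6, 6.27 and 8.84 CPM against 5.61, 3.14, 10.9 and 18.2 CPM. Others were high in the second pair alone, such as the nuclear receptor Nr4a3 (3.38, 6.45, 39.0 and 34.6 CPM against 6.05, 8.16, 1.76 and 1.55) and the guanylate-binding protein Gbp10 (1.23, 0.716, 10.5 and 11.4 CPM against 1.06, 0.735, 0.188 and 0.372). The transporter Slc10a6 rose in all 4 and further in the second pair (28.1, 27.9, 159.7 and 176 CPM against 4.74, 9.76, 2.76 and 0.992). These genes were picked for this difference, so their values are a description with no test. Clock genes differed between the parts in sham hearts too, and Per1, a clock repressor, stood at 96.5, 96.6, 25.8 and 14.3 CPM there and 162, 135, 211 and 193 CPM in doxorubicin vehicle. Of 19 clock genes 5 rose (3 without doxorubicin vehicle replicate 3 or 4) and 3 fell, and 10 had the same direction in both parts. The time of day at which hearts were taken is not given in the sources used here.

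**Figure D5:**
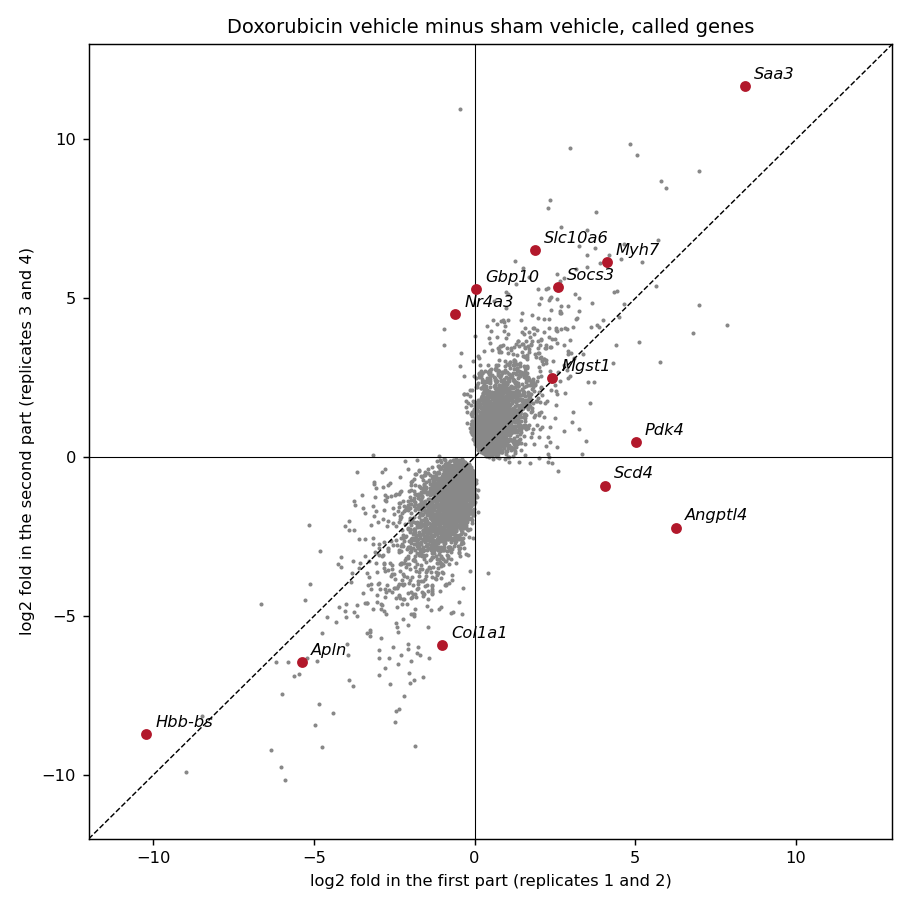
Log2 fold from replicates 1 and 2 (first part, horizontal) and from replicates 3 and 4 (second part, vertical) for 7145 genes called over all libraries, with named genes in red and the diagonal dashed. Most points lie in the lower left and upper right quadrants and steeper than the diagonal, and Angptl4, Pdk4 and Scd4 lie to the right of it.

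The size of a gene bore a weak relation to its direction. In 5 equal bins of genomic span, the share called lower went from 18.2% of the shortest genes (median span 3.02 kb) to 30.1% of the longest (121 kb), and the share called higher from 25.6% to 21.0%. The median log2 fold of the longest genes was -0.07 and that of the shortest 0.08. Exonic length showed less of this, with 19.3% lower among the shortest and 26.0% among the longest. By level, the share called higher went from 15.1% in the lowest bin of mean CPM to 35.6% in the highest. These shares are descriptions over genes, which are not independent replicates.

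The same contrast was also made in mice given NMN. There it sets the doxorubicin libraries with NMN against the sham libraries with NMN, so the 2 contrasts share no library. With NMN 0 of the 14716 genes were called at the same threshold, so the folds with NMN given here were not called. The test of the difference between the doxorubicin effect without NMN and with NMN called 2714 of 14716 genes (18.4%). Of these 2676 were among the 7170, but the difference contains the contrast without NMN, so this overlap is in part built in. The genes that follow were named for their change without NMN, which favours a large difference. Oxct1 had a log2 fold of -1.82 without NMN and -0.16 with it (difference -1.65, edgeR adjusted p = 8e-05), Apln -5.97 and -0.60 (-5.37, edgeR adjusted p = 0.0006), and Socs3 4.60 and 0.00 (4.60, edgeR adjusted p = 0.00169). Of 24 collagen genes tested, 8 had a difference that passed. For Gdf15 the folds were 3.65 and 1.79, and their difference did not pass (edgeR adjusted p = 0.0974). The count of 2714 rested in part on single libraries. It was 4178 without doxorubicin vehicle replicate 2, and 1783, 1757, 1722 and 1720 without doxorubicin vehicle replicate 4, sham NMN replicate 3, doxorubicin NMN replicate 2 and doxorubicin NMN replicate 3.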

How the data were processed

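RNA of mouse hearts was sequenced in 16 libraries, 4 in each of 4 labelled groups, and the authors deposited raw counts per gene and FPKM values for 30884 genes. The submitters' processing notes name HISAT2 2.1.0, HTSeq 0.6.0 and GRCm38; for the annotation release, strand setting and filters the sources used here give nothing. The deposited FPKM equal count over library total and 1 length per gene within a relative deviation of 7.55e-15, and served for alternatives alone. The kit named in the labels' protocols does not mark strand, so reads of a gene and of one that overlaps it on the other strand cannot be told apart.

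Counts were fitted in 1 quasi-likelihood model over the 4 groups with edgeR 4.0.16 in R 4.3.3 (genes kept by filterByExpr, TMM scaling, common dispersion 0.0377, a coefficient of variation of 19.4%). A gene was called at a Benjamini-Hochberg adjusted p under 0.05 over 14716 genes, and "rose" and "fell" mean called. Folds are log2, doxorubicin vehicle minus sham vehicle. CPM were computed per library total. Fitted folds of genes at 0 depend on the prior count. The floor of 3 counts covers counting error only. No pair of libraries of a group agreed within sampling noise by chi-square, and nothing says whether libraries of a group came from separate animals, so the p-values reflect spread among these libraries, which may be technical. The replicate numbers are numbers only and did not pair the libraries.

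The division of libraries into a first and a second part follows the largest gap in the mean log2 CPM of Scand1, Cox11 and Mrps34, and folds within a part come from a fit of its libraries. The 62 gene lists and 23 marker lists, and the contrast, were chosen with earlier results of these data known; 10 of the listed genes were not found in the tables. Named genes are the 15 genes highest and the 15 lowest in fold, out of called genes without overlap whose higher group averaged at least 5 CPM, the 10 largest rises and falls in CPM, up to 5 members of each list with the smallest p and any member of a list of at most 12, and the 8 genes each way that differed most between the parts. Not all are printed, and genes outside the rule are said to have been picked after their values were seen. Promoters are from the RefSeq table. The steps were tested on simulated data. The alternatives tried were upper-quartile and RLE scaling, no filter or a CPM filter, DESeq2 1.42.0, limma 3.58.1 (voom, voom with library weights, and trend on log2 FPKM plus 0.1 or 1), an adjusted p under 0.01, a test against a fold of 1.5, only the groups compared, the replicate block, the division as a term, each part alone, and leaving out each library. Figures were drawn with matplotlib 3.10.9 in Python 3.11.15.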

Additional observations from a re-analysis of the deposited data

Results flagged for a closer look

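Single libraries stood apart from the other 3 of their group in 17 of 366 groups of 4 values checked, where chance gives about 1 in 20. In sham vehicle replicate 1, Letm1 (90.6 CPM), Xbp1 (39.8 CPM), Lox (4.11 CPM) and Mmp15 (94.5 CPM) lay below the others. In sham vehicle replicate 2, Cxcl13 (0.201 CPM) and Mmp8 (0.334 CPM) were the values of their groups above 0. In sham vehicle replicate 4, Cyp1b1 was low (5.39 CPM) and Pdgfra (56.2 CPM) and the unnamed gene Gm28438 (616 CPM) were high. In doxorubicin vehicle replicate 1, Cxcl13 (26.3 CPM), Retnlg (18.8 CPM) and Adipoq (0.455 CPM) were high. In doxorubicin vehicle replicate 2, Des (3106 CPM) was low and Gm49130 (1.63 CPM), Rbfox1 (23.4 CPM), Itgb6 (1.69 CPM) and Mdga1 (0.781 CPM) were high.

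The doxorubicin effect differed with and without NMN for 2714 genes by the test of the difference itself. The parts of the library division were not balanced between the groups with and without NMN, and their share in this difference was not tested. Among the named genes that difference was -1.65 on the log2 scale for Oxct1, -5.37 for Apln and 4.60 for Socs3. The direction was without NMN minus with NMN.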

How the results depend on the processing

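The number of genes called between doxorubicin vehicle and sham vehicle, 7170, stayed within 1.5 times under all alternatives run except 2, namely 2310 against a fold of 1.5 and 4121 in the first part alone, and it ran from 6077 to 7890 with 1 library left out. The number whose doxorubicin effect differed with NMN, 2714, was less stable. It was 7010 by limma-voom with library weights, 873 at an adjusted p under 0.01, 444 against a fold of 1.5, 1364 in the first part and 4521 in the second, and from 1720 to 4178 with 1 library left out. With the replicate number as a replicate block the counts were 7186 and 2614. The same numbers did not pair the libraries, since same-numbered libraries of the 2 vehicle groups had correlations of their deviations between -0.034 and 0.047. Of 4386 values of 183 named genes under the alternatives, 4294 kept direction and call, 70 lost the call, 5 gained it and 17 turned. In the text, Nr4a3 lost its call under the replicate block and without sham vehicle replicate 3 or 4 or doxorubicin vehicle replicate 3 or 4, and Scd4 without sham vehicle replicate 1, 2 or 3 or doxorubicin vehicle replicate 1 or 2. No other gene of the 183, which leave out the mitochondrially encoded genes, lost its call with 1 library left out. Turned log2 folds were those of Top2b (-0.0095 under upper-quartile scaling, -0.0852 in the first part), Tcf21 (-0.0702 in the first part), Nr4a3 (-0.603 in the first part), Scd4 (-0.8936 in the second part) and Angptl4 (-0.5179 by limma-voom with library weights, -2.2109 in the second part). Pdgfra turned to -0.0806 under upper-quartile scaling, -0.0234 with no filter, -0.005 with only the 2 groups, -0.0004 with the division as a term and -0.0274 in the first part, and it ran from -0.0748 to 0.1253 with 1 library left out. Causes were not tested. Of 3312 counts of list members 380 moved by over 1.5 times. The balance of higher and lower members turned for mitochondrial protein import (5 and 4) and the clock (6 and 8) in the first part. It turned for fatty acid oxidation (5 and 10), BCL2 and apoptosis genes (13 and 14) and interferon-stimulated genes (9 and 10) in the second part. Fatty acid oxidation turned also by limma-voom with library weights (6 and 7), and DNA repair, interferon-stimulated and endothelial lists turned with 1 library left out. Genes near the floor of 3 counts are limited by depth.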

Other observations

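Several groups not described above were counted in the same way. Of 24 genes of necroptosis, pyroptosis and ferroptosis 13 rose and 3 fell, against 24.8% and 23.9% of all genes tested. The iron-storing ferritin light chain Ftl1 rose by 2.20, and Slc3a2, the heavy chain shared by several amino acid exchangers, rose by 2.09. Pycard, the adaptor of inflammasomes, fell by 1.94. Of 19 polyamine and amino acid transport genes 7 rose and 1 fell, with the glutamine and alanine transporter Slc38a2 at 1.99 and the leucine exchanger subunit Slc7a5 at 1.03. Kruppel-like factors gave 6 higher and 1 lower of 13, led by Klf6 (1.24), with Klf12 (-1.08) the member that fell. Actin and tubulin cytoskeleton genes gave 6 higher and 13 lower of 35 (8 lower without sham vehicle replicate 4). In that list the intermediate filament vimentin, Vim, fell by 1.67 and the regulatory light chain Myl12a rose by 1.68. Lysosomal hydrolases and membrane proteins gave 11 higher and 5 lower of 30, hypoxia-induced genes 8 and 7 of 20, and immunoproteasome and class I presentation genes 4 and 3 of 14. The shares of the last list lay near those of all genes tested.

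A single sham library carried a high level of an unnamed gene. Gm28438 stood at 23.9, 23.1, 21.9 and 616 CPM in sham vehicle and 19.3, 18.5, 10.6 and 9.39 CPM in doxorubicin vehicle. The level in sham vehicle replicate 4 was far above that of the other 7 libraries, and without it the log2 fold of the gene went from -3.59 to -0.70. Of 8 adipocyte markers tested 2 rose and 2 fell. The adipokine gene Adipoq was uneven between hearts, at 0.436, 0.936, 0 and 1.92 CPM in sham vehicle and 0.455, 0, 0 and 0 CPM in doxorubicin vehicle, and was not called.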
